A study of Mus musculus with 4 samples.

Results

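The 10 genes described here, Slc2a1, Slc2a3, Hk1, Hk2, Pkm, Ldha, Ldhb, Slc16a1, Slc16a8 and Bsg, carry glucose into a cell, commit it to glycolysis, make or use lactate, and move lactate across the membrane. They were taken by symbol from the 32285 genes of the count matrices, of which 17463 had at least 1 UMI (unique molecular identifier, 1 counted RNA molecule). Together they held 44924 of 3522010 UMIs in posterior eyes of C57BL/6J mice. Among the 7 regions compared (photoreceptor, inner nuclear, ganglion, pigmented, fibrous, muscle and myelin), the photoreceptor region had the highest mean levels of the hexokinase genes Hk1 and Hk2 and the lowest of the lactate dehydrogenase gene Ldhb. The ganglion region had hardly any Hk2 and the highest mean levels of the glucose carrier gene Slc2a3 and of Ldhb. The pigmented region had the highest mean levels of the glucose carrier gene Slc2a1 and of Bsg, Slc16a1 and Slc16a8, which serve lactate transport.

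The data are Visium spatial transcriptomics, in which RNA of a tissue section is captured on a grid of barcoded spots and counted per spot from its 3′ end. There were 4 capture frames, labelled as biological replicates, with cryosections of fresh-frozen eyes embedded in OCT. According to the design text, Wif1, an inhibitor of Wnt signalling, was delivered by 1 of 2 AAV2/2 vectors, CMV-Wif1-HA or CMV-Wif1-HA-IRES-GFP, with CMV-IRES-GFP as the control vector. The text sets a wild-type control beside eyes taken 2 weeks or 4 weeks after the vector. The single treatment label of every frame is Naive+AAV2/2, and the labels do not say which section had which treatment. No treatment was therefore compared: every comparison is between regions of the same frames, and each region can hold treated and control tissue. CMV is a promoter that is active in many cell types, and neither the age of the mice nor the number of eyes in a frame is given in the labels. The p-values measure the spread between frames, which may be technical and may include differences of treatment. The labels name nuclear RNA as the molecule and retina as the tissue, while markers of muscle, keratin-rich epithelium, fibrous tissue and myelin were also present.

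Glucose enters cells through the facilitative carriers Slc2a1 (GLUT1) and Slc2a3 (GLUT3), hexokinases trap it as glucose 6-phosphate, and pyruvate kinase, encoded by Pkm, makes pyruvate at the end of glycolysis. Lactate dehydrogenase is a tetramer of subunits from Ldha and Ldhb. The Ldha subunit is generally linked with making lactate from pyruvate and the Ldhb subunit with the reverse use. Photoreceptors are known for making much lactate in the presence of oxygen, and the retinal pigment epithelium for passing glucose from the choroid to them and lactate the other way. The monocarboxylate carriers Slc16a1 (MCT1) and Slc16a8 (MCT3) move lactate and need the membrane glycoprotein basigin, encoded by Bsg, to reach the cell surface.

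Start-site sequences of Ldha, Ldhb and Hk2 are printed because the results below turn on the opposite course of Ldha and Ldhb across the retina and on the steep one of Hk2. Each is the 250 bases before the annotated start, 5′ to 3′ on the gene's strand, from RefSeq on GRCm38.p6. Capitals mark matches to ACGTG on either strand, 1 form of the core letters bound by hypoxia-inducible factors. ACGTG also lies within CACGTG, a motif of basic helix-loop-helix factors. Other forms of the hypoxia core were not searched, so a window without ACGTG may still hold such a core.
Ldha (chr7:46845554-46845803, plus strand): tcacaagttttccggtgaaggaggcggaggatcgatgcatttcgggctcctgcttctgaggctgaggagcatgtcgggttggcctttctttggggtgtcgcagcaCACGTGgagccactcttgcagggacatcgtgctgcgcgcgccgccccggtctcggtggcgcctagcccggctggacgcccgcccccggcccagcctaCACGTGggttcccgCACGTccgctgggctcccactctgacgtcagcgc
Ldhb (chr6:142507958-142508207, minus strand): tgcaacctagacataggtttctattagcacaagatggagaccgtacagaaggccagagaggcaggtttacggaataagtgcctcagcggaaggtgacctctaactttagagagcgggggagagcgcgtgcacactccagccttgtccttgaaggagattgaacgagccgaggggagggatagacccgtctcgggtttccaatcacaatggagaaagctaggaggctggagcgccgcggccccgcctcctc
Hk2 (chr6:82774455-82774704, minus strand): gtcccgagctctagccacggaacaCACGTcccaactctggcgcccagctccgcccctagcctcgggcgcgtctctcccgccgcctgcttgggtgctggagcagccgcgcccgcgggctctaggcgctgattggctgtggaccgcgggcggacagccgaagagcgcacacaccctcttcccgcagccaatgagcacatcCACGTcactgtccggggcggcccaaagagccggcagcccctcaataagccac
The Ldha window had ACGTG at 3 places, 145, 48 and 34 bases before the start, and the first 2 of these lie in CACGTG. The Hk2 window had it at 226 and 52 bases before the start, and the Ldhb window had none. Of 32851 windows of this length in the table, 16.6% had ACGTG, 1.95% had it at 2 or more places, and 6.02% had CACGTG. Over the 10 genes, 8 had an entry, with 11 starts, of which 5 had ACGTG and 2 had CACGTG. Slc16a1 had 1 place 200 bases before its start, Slc2a1 had 1 at 36 bases and 1 of the Pkm starts had 1 at 75 bases. TAATCC, a letter string bound by the photoreceptor factor Crx, was in 1 of the 11 starts, a second start of Ldha, and in 6.25% of all windows. These are matches of letters and were not tested as binding sites.

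Regions were drawn by clustering spots on 152 marker genes, none of them among the 10 genes, and are named by their leading markers. The photoreceptor region was led by rod and cone genes, inner nuclear by Grm6, Scgn and Cabp5, ganglion by Pou4f1, Slc17a6 and Nefm, pigmented by Rpe65, Lrat and Dct, fibrous by Thbs4 and Dcn, muscle by Myh4, Mylpf and Ttn, and myelin by Mobp and Cldn11. Smaller sets of spots led by immune markers (218 spots) and by epithelial keratins (56 spots) were in no comparison. The inner retina is the inner nuclear and ganglion regions together, and the myelin region stands in for the optic nerve. A spot covers several cells, so fewer cells of a type and less RNA per cell cannot be told apart. Frames held 1056 to 1243 spots and 674029 to 1066633 UMIs, with a median of 430 to 630.5 UMIs per spot, and 2013 of the 4603 spots had too few marker UMIs to be placed. In each frame the photoreceptor region had 191 to 214 spots, the inner retina 129 to 206, the pigmented region 47 to 159, the fibrous region 21 to 50 and the muscle region 26 to 40. Myelin spots numbered 13 in frame 2, 27 in frame 3, 36 in frame 4 and 0 in frame 1, so its comparisons rest on 3 frames. Of 2458 distinct barcodes, which mark positions on the grid, 121 were in all 4 libraries. Frame 4 stood apart in its gene counts over all spots. Its chi-square per degree of freedom was 10.62, 8.196 and 8.702 against frames 1, 2 and 3, and the other pairs of frames were at 2.798 to 3.892. That measure includes the mix of regions in each frame, and the cause was not tested.

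Several regions were mixed, and this touches the results below. Rod RNA reached the muscle and fibrous regions: the 19 photoreceptor markers summed to 49038 to 65848 CPM (UMIs per 1000000 UMIs of the region) in muscle and 57860 to 79365 CPM in fibrous spots, against 68840 to 83520 CPM in the photoreceptor region. Muscle was made of 2 clusters, a cluster of 70 spots with Myh4, a fast muscle myosin gene, at only 715 CPM and a cluster of 55 spots with Myh4 at 15923 CPM. Results for muscle are therefore given with and without the first of these, called the Myh4-poor cluster. Without it the photoreceptor markers in muscle summed to 20941 to 50217 CPM. The pigmented region also had 2 clusters, 339 spots led by the pigment epithelium genes Slc6a20a, Lrat and Rpe65 and 101 spots led by Fbln1, Gpnmb and the melanocyte gene Dct. A separate split of all spots by marker score kept pigment epithelium markers and melanocyte markers apart. The myelin region had 14 of 14 myelin markers, 0 of 18 muscle markers, and a photoreceptor sum of 1377 to 2684 CPM. In the photoreceptor region all 19 of its markers were present, and in the muscle region 17 of 18 muscle markers, with Myh13 at 0. The inner nuclear region also held Muller glia: their markers Abca8a, Slc1a3 and Cav1 were among its 10 leading genes. The 9 Muller glia markers summed to 1887 to 3386 CPM there and 443 to 1018 CPM in ganglion spots. The part of these glia in the differences between the 2 regions was not tested. Rod RNA was also present in the inner nuclear region. The photoreceptor markers summed to 17460 to 35968 CPM there and 2046 to 4008 CPM in ganglion spots. What part rod RNA has in the falls of Hk2, Slc16a1 and Ldha from inner nuclear to ganglion spots was not tested.

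Levels in CPM are UMIs of a gene per 1000000 UMIs of the region, are not divided by gene length, and are compared between regions for 1 gene at a time. Over all spots Bsg was found in 83.1%, Hk1 in 39.1%, Pkm in 32.2%, Slc2a1 in 26.1%, Ldha in 19.1%, Hk2 in 15.4%, Slc16a1 in 11.8%, Ldhb in 4.801%, Slc2a3 in 3.41% and Slc16a8 in 2.56%. Differences are fitted log2 fold changes from edgeR's quasi-likelihood test with Benjamini-Hochberg adjustment over all genes tested, and the words rose, fell, higher or lower with an adjusted p follow this test at 0.05. The ± beside a fold change is the SD over frames of the log2 fold within each frame. Slc2a3 and Slc16a8 had too few UMIs to be tested in most comparisons and are given as levels. The fit sets its scale by the bulk of genes, which places fitted log2 folds off the log2 ratio of the CPM values by between -0.35 (myelin) and 0.12 (pigmented against fibrous). Ratios between 2 genes are ratios of UMIs, and only their change from region to region is compared.

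**Figure D1:**
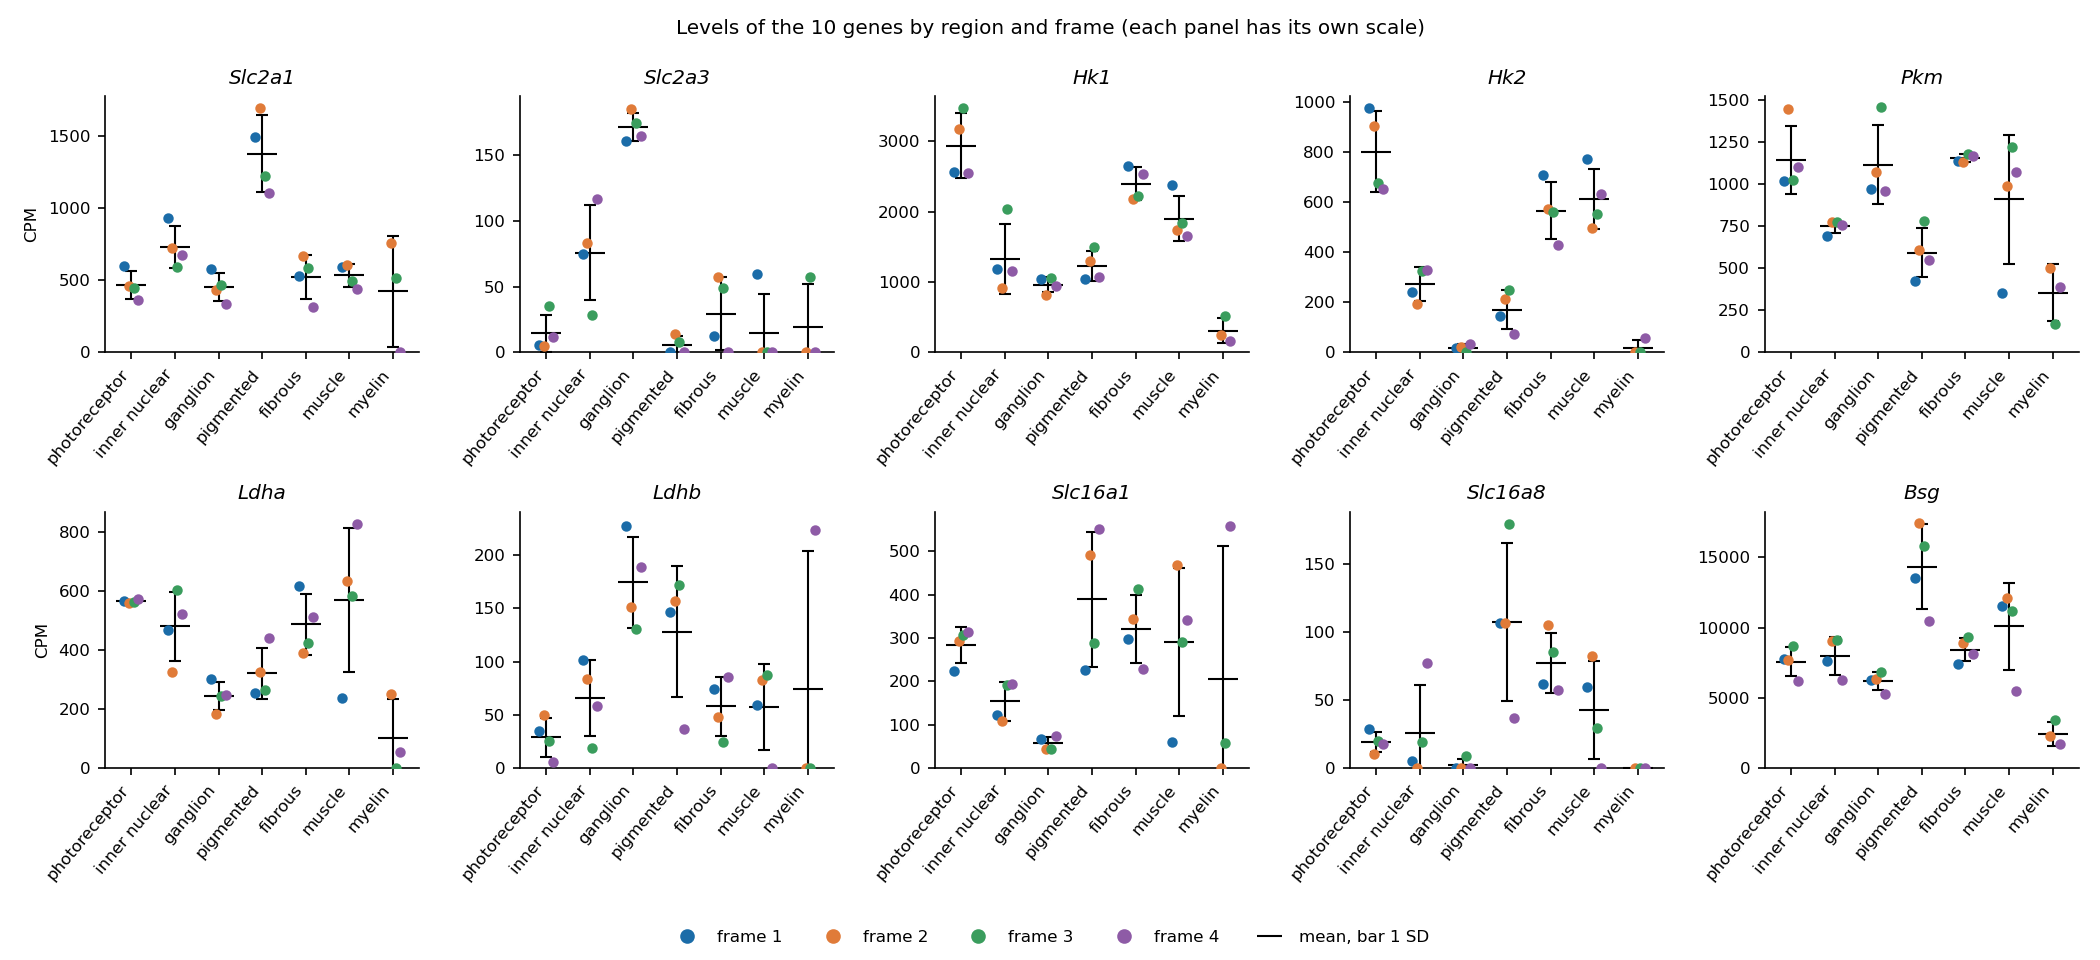
Level of each of the 10 genes in CPM (vertical axis, own scale per panel, from 0) in 7 regions (horizontal axis); points are frames, the black dash is the mean and the bar 1 SD. Hk2 is at 801 CPM in the photoreceptor region and 18.5 CPM in the ganglion region, and Slc2a3 and Ldhb have their highest means in the ganglion region.

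Slc2a1 was higher in pigmented spots than in the photoreceptor region, and between the inner retina and photoreceptors no call was made. Slc2a1 (ENSMUSG00000028645, chr4:119108745-119137330, GRCm38.p6, plus strand) is the main glucose carrier of the blood-retina barriers. Its level was 601, 462, 444 and 361 CPM in the photoreceptor region of frames 1 to 4 and 1496, 1692, 1223 and 1102 CPM in the pigmented region. Every pigmented value was above every photoreceptor value, and the fitted log2 fold was 1.53 ± 0.23 (n = 4 frames, adjusted p = 1.8e-08), or 0.93 (adjusted p = 0.049) at a minimum of 50 marker UMIs per spot. Against fibrous spots, where Slc2a1 was 314 to 667 CPM, it was higher in pigmented spots by a log2 fold of 1.48 ± 0.23 (adjusted p = 1.3e-06). That second call was lost at a minimum of 50 marker UMIs per spot (0.83, adjusted p = 0.23) and with the marker score (1.00, adjusted p = 0.052). The cluster led by Dct had 1984 CPM and the cluster led by Rpe65 had 1108 CPM.

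When spots were split by marker score, Slc2a1 was 1483, 1673, 938 and 849 CPM in pigment epithelium spots. In melanocyte spots of frames 1 to 3 it was 1851, 1667 and 1484 CPM, and frame 4 had too few such spots. These groups overlapped, and the log2 fold of pigment epithelium over melanocyte was -0.28 ± 0.32 (n = 3, adjusted p = 0.61). The hexokinase, Pkm and Ldha genes had no call between these spots either: Hk2 was at 1.31 ± 1.503 (adjusted p = 0.0995), Hk1 at 0.55 (0.23), Pkm at 0.53 (0.37) and Ldha at 0.79 (0.32). Slc2a1 was thus high in both kinds of pigmented spots rather than in pigment epithelium alone. In melanocyte spots the pigment epithelium markers summed to 2429 to 3042 CPM and the melanocyte markers to 21204 to 29874 CPM; in pigment epithelium spots the sums were 18410 to 25788 CPM and 2154 to 7837 CPM.

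Within the inner retina Slc2a1 was 933, 723, 594 and 679 CPM in the inner nuclear region and 576, 436, 469.5 and 337 CPM in the ganglion region. It fell from inner nuclear to ganglion in all 4 frames, with a log2 fold of -0.78 ± 0.32 (adjusted p = 0.0081). That call was lost with no filter on low counts (adjusted p = 0.27) and with spots drawn by marker score (adjusted p = 0.12). The inner retina stood above photoreceptor spots in 4 of 4 frames, at 0.18 ± 0.05 (adjusted p = 0.51), with the inner nuclear mean at 157% of the photoreceptor mean and above it in every frame. In myelin spots Slc2a1 was 756, 516 and 0 CPM in frames 2, 3 and 4, a spread too wide for a call at a log2 fold of -0.82 ± 2.50 (adjusted p = 0.15). Without frame 3 the fold was -2.10 (adjusted p = 0.033) and with no filter it was -1.72 (adjusted p = 0.0045). Against the inner retina it was -1.01 ± 2.50 (adjusted p = 0.081). In muscle Slc2a1 was 594, 606, 495 and 438 CPM, at 0.08 ± 0.22 against photoreceptor spots with both clusters (adjusted p = 0.95) and -0.02 ± 0.95 without the Myh4-poor cluster (adjusted p = 0.98).

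Slc2a3 (ENSMUSG00000003153, chr6:122727809-122802363), the neuronal glucose carrier, had its highest levels in the inner retina. Its level was 161, 184, 174 and 164 CPM in the ganglion region (17, 33, 20 and 20 UMIs) and 74.7, 83.2, 28.7 and 116 CPM in the inner nuclear region. Photoreceptor spots had 5.73, 4.97, 35.3 and 11.8 CPM. The ganglion values, 171 ± 10.7 CPM (SD, n = 4), lay above every value of the other regions compared. Pooled over frames the ganglion level was 11.7 times the photoreceptor level (95% exact counting interval 6.22 to 24.2, from 90 and 11 UMIs). Against the 3 UMIs of the pigmented region the ratio was 21.3 (interval 7.08 to 105). Pigment epithelium spots drawn by score had 0 UMIs in 181940, which allows up to 16.5 CPM. Intervals of this kind cover counting error only.

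Ganglion against inner nuclear was the single main comparison in which Slc2a3 had enough UMIs for the test, and it was higher in ganglion spots by a log2 fold of 1.15 ± 0.73 (adjusted p = 0.028). This call is fragile. It was lost with DESeq2 (adjusted p = 0.12), with at least 50 marker UMIs per spot (0.68), with the marker score (0.62), with at least 10 marker UMIs (0.056), and without frame 1, 2 or 3 (0.080, 0.088 and 0.14).

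Both hexokinase genes had their highest means in the photoreceptor region, and Hk2 set regions apart far more than Hk1 did. Hk1 (ENSMUSG00000037012, chr10:62268855-62379920) encodes the widely expressed hexokinase and Hk2 (ENSMUSG00000000628, chr6:82725025-82774454, minus strand) an inducible form that is known in rods, muscle and tumours. Hk2 was 974, 904, 675 and 651 CPM in the photoreceptor region (170, 182, 134 and 110 UMIs), 240.0, 192, 326 and 329.6 CPM in the inner nuclear region and 18.9, 22.4, 0 and 32.9 CPM in the ganglion region (2, 4, 0 and 4 UMIs). None of these 3 ranges overlapped. Pooled over frames Hk2 was 41.8 times higher in photoreceptor than in ganglion spots (95% exact counting interval 22.6 to 87.6).

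From photoreceptor to inner retina Hk2 fell by a log2 fold of -2.72 ± 0.41 (adjusted p = 3.5e-16), and from inner nuclear to ganglion spots by -3.85 ± 0.91 (adjusted p = 6.6e-06), lower in 4 of 4 frames each time. The first fold was -4.39 with the marker score and -3.39 at a minimum of 50 marker UMIs per spot, and the second was -3.03 at minimums of 10 and of 50. Hk1 was 2561, 3170, 3472 and 2544 CPM in photoreceptor spots and 1128, 865, 1522 and 1010 CPM in the inner retina, a log2 fold of -1.53 ± 0.33 (adjusted p = 1.3e-10). Unlike Hk2 it was still at 964.5 ± 107 CPM (SD, n = 4) in the ganglion region, against 1324 ± 492 CPM in the inner nuclear region. The fitted fold between these was -0.51 ± 0.41 (adjusted p = 0.046), a call that 7 alternatives lost (adjusted p = 0.061 to 0.82), among them leaving out frame 3 (0.33), and that the marker score turned to 0.31 (adjusted p = 0.74).

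The ratio of Hk2 to Hk1 UMIs was 0.380, 0.285, 0.194 and 0.256 in the photoreceptor region of frames 1 to 4 and 0.142, 0.117, 0.102 and 0.12 in the inner retina. In every frame the photoreceptor ratio was the higher, by a log2 difference of 1.17 (inner retina minus photoreceptor -1.17 ± 0.22). With the marker score, where Hk2 in the inner retina was 46.2 CPM, the difference was -2.69 ± 0.93. The exact two-sided sign-flip permutation test gave p = 0.13 in both settings, the smallest that 4 frames allow, so none of the 15 ratio tests could reach 0.05. Hk2 made up 21.3% of the UMIs of both genes in the photoreceptor region (95% exact interval 19.8 to 22.8%), 16.5% in the inner nuclear region (13.9 to 19.3%) and 1.99% in the ganglion region (0.957 to 3.63%). In ganglion spots hexokinase UMIs were thus almost all from Hk1.

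In the pigmented region the Hk2 to Hk1 ratio was 0.141, 0.164, 0.166 and 0.069, below the photoreceptor ratio of the same frame each time (-0.99 ± 0.62, exact permutation p = 0.13). Both genes fell against photoreceptor spots, Hk2 by a log2 fold of -2.06 ± 0.74 (adjusted p = 8.6e-10) and Hk1 by -1.27 ± 0.13 (adjusted p = 1.3e-07). Against fibrous spots the folds were -1.44 ± 0.63 (adjusted p = 7.3e-05) and -0.85 ± 0.43 (adjusted p = 0.0011), and the ratio differed by -0.79 ± 0.20 (exact permutation p = 0.13). Both calls against fibrous spots were lost at a minimum of 50 marker UMIs per spot (adjusted p = 0.091 and 0.16) and with the marker score (-0.55, adjusted p = 0.54, and 0.24, adjusted p = 0.71), and that for Hk1 also without frame 1 (0.075). Photoreceptor markers summed to 16148 to 29282 CPM in pigmented spots and 57860 to 79365 CPM in fibrous spots, and their part in these differences was not tested.

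**Figure D2:**
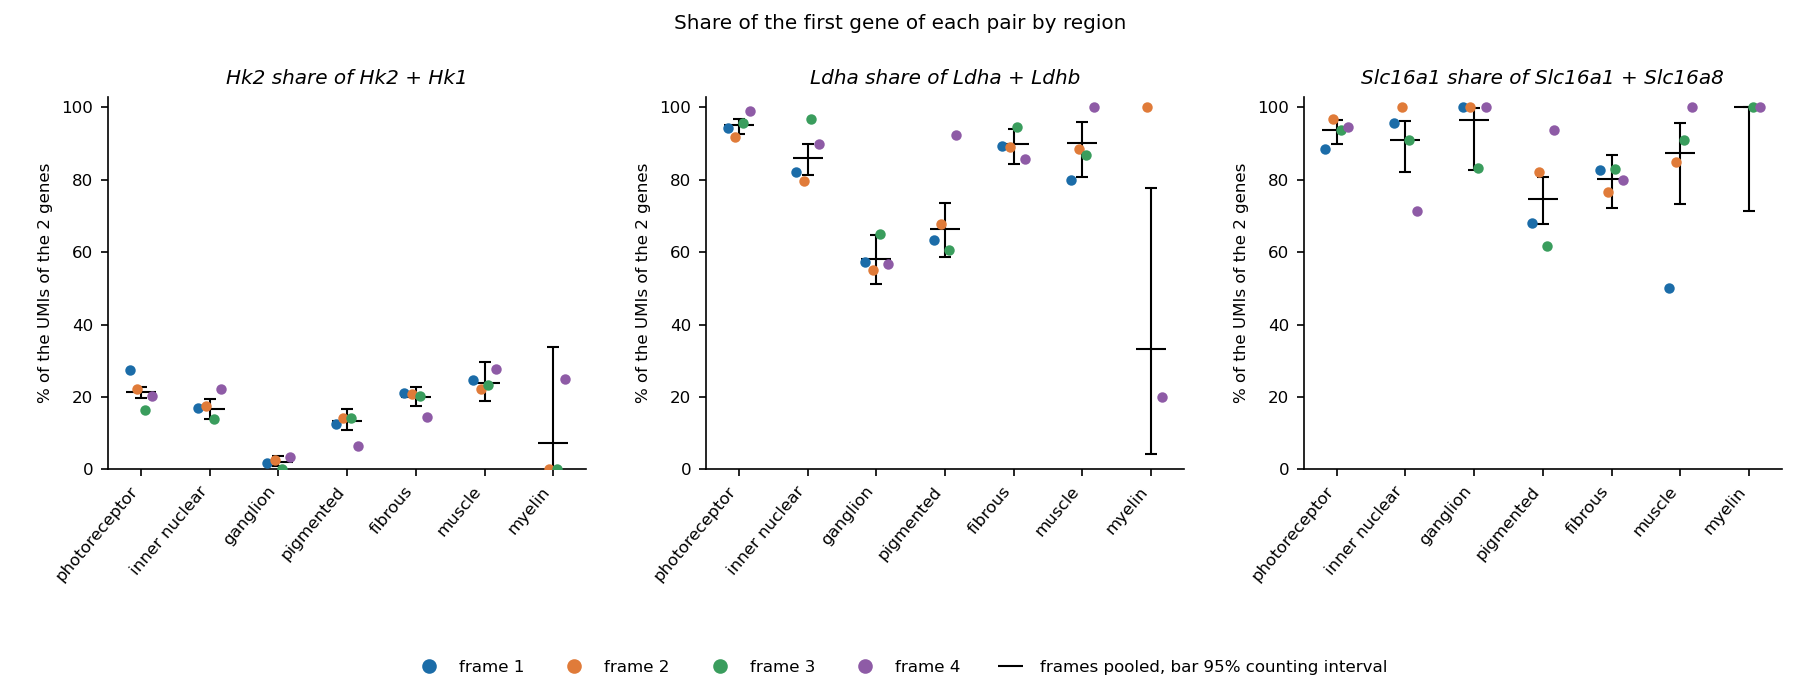
Share of the first gene among the UMIs of each pair (vertical axis, percent) in 7 regions; points are frames, the black dash is all frames pooled and the bar its 95% exact counting interval. Hk2 is 21.3% of both hexokinases in the photoreceptor region and 1.99% in the ganglion region, and Ldha falls from 95.03% to 58.0% between the same regions.

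Muscle depended on which spots were counted. With both muscle clusters Hk2 was 772, 496, 554 and 633 CPM, and no call was made against photoreceptor spots (-0.54, adjusted p = 0.38; at resolution 1 it was -0.89, adjusted p = 0.044, and with the marker score -3.55, adjusted p = 0.0012). Without the Myh4-poor cluster it was 0, 250.05, 222 and 0 CPM (8 UMIs in all), and Hk2 was lower than in photoreceptor spots by a log2 fold of -2.61 ± 2.13 (adjusted p = 1.1e-05). Hk1 was lower in muscle both ways, by -0.76 ± 0.32 (adjusted p = 0.032) and by -1.85 ± 1.25 (adjusted p = 1.2e-07), but the first call was lost without TMM (0.063), without the frame block (0.11), with a fit of only the 2 regions (0.15) and without frame 3 (0.18). With the marker score it was lower by -2.89. The Hk2 to Hk1 ratio in muscle was above that of photoreceptor spots by 0.27 ± 0.42 (3 of 4 frames, exact permutation p = 0.375). The sign turned without the Myh4-poor cluster (-0.65) and with the marker score (-0.04).

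Myelin spots had the lowest mean Hk1 level of the 7 regions. It was 252, 516 and 168 CPM in frames 2 to 4, lower than in photoreceptor spots by a log2 fold of -3.54 ± 0.94 (n = 3, adjusted p = 2.4e-13) and than in the inner retina by -2.01 ± 0.62 (adjusted p = 3.8e-05). Hk2 had 1 UMI of 39293. Pooled over frames 2 to 4 the photoreceptor level of Hk2 was 29.4 times the myelin level, with a counting interval of 5.25 to 1165. The fitted fold was -5.16 ± 1.28 (adjusted p = 7e-08), and without frame 4, which held the 1 UMI, the myelin count was 0. Against the inner retina Hk2 was at -2.44 ± 1.18 (adjusted p = 0.080). The Hk1 fold against photoreceptor spots ran from -2.74 with the marker score to -4.44 without frame 3.

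Set against their photoreceptor means, Hk2 stood lower than Hk1, Ldha and Pkm in the ganglion region. Hk2 stood at 33.9% of its photoreceptor mean in the inner nuclear region and at 2.31% in the ganglion region. Hk1, Ldha and Pkm stood at 32.8%, 43.1% and 97.4% in the ganglion region. In the mixed regions Hk2 stood at 70.7% (fibrous), 76.6% (muscle) and 14.7% (muscle without its Myh4-poor cluster), and in pigment epithelium spots by score at 28.1%. This is a description of region means from the same libraries, and what part rod RNA has in the Hk2 of other regions was not tested.

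**Figure D3:**
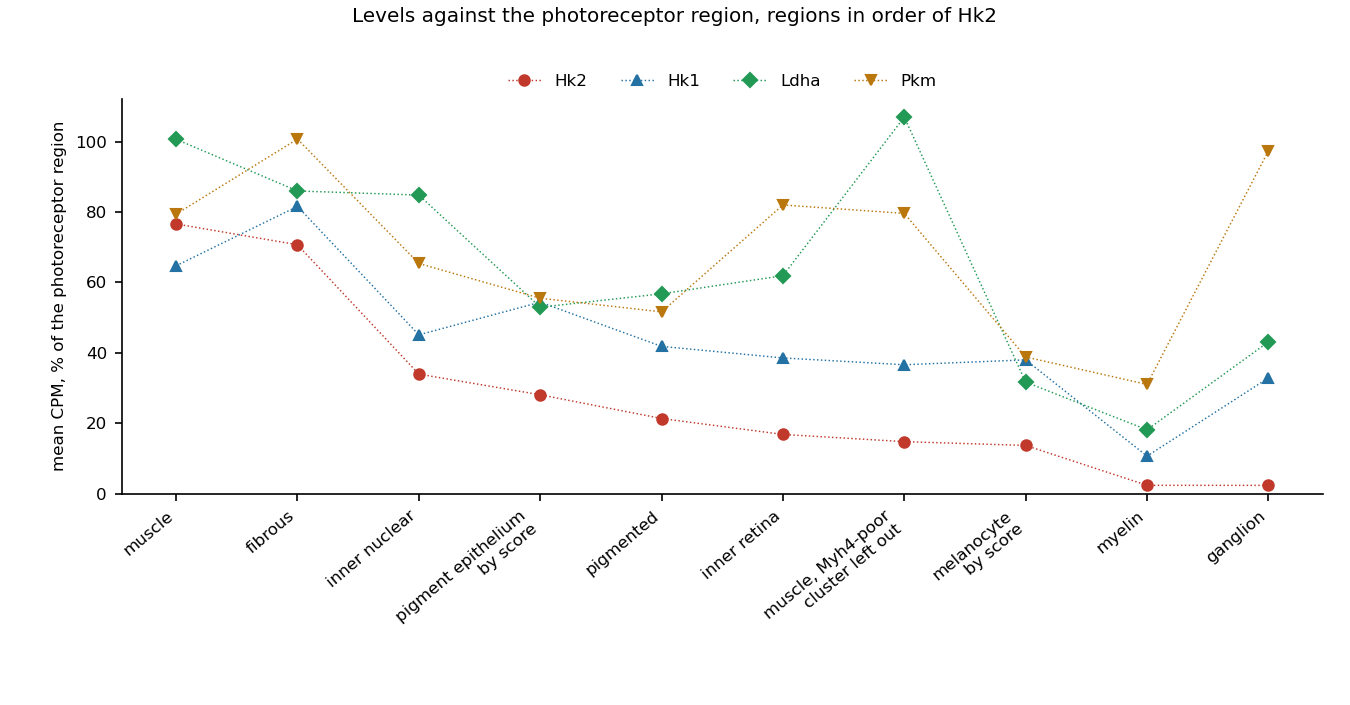
Mean CPM of Hk2, Hk1, Ldha and Pkm as a percent of the photoreceptor region (vertical axis) in 10 sets of spots put in order of Hk2 (horizontal axis, overlapping sets of spots); dotted lines only guide the eye. Hk2 is at 2.31% in the ganglion region, where Pkm is at 97.4%.

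Pkm (ENSMUSG00000032294, chr9:59656576-59679372) varied less across the retina. Its level was 1020, 1446, 1023 and 1100.5 CPM in the photoreceptor region, 693, 775, 776 and 756 CPM in the inner nuclear region and 973, 1073, 1461 and 961 CPM in the ganglion region. Photoreceptor and ganglion ranges overlapped, and the inner nuclear values lay below both. Inner retina against photoreceptor gave a log2 fold of -0.43 ± 0.34 (adjusted p = 0.064, lower in 3 of 4 frames), and ganglion against inner nuclear 0.46 ± 0.28 (adjusted p = 0.063). Both lay near the limit: the first passed in 5 alternatives (adjusted p = 0.0089 to 0.048), among them DESeq2 and leaving out frame 3, and the second in 3 (adjusted p = 0.011 to 0.036), among them leaving out frame 4. Counts per gene from the 3′ end do not separate the M1 and M2 splice forms of Pkm.

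Outside the retina Pkm fell in pigmented spots, which had 427, 611, 779 and 551 CPM, by -0.96 ± 0.42 against photoreceptor spots (adjusted p = 0.00024) and by -0.84 ± 0.36 against fibrous spots (adjusted p = 0.0041), the second lost in 4 alternatives (adjusted p = 0.078 to 0.38), among them leaving out frame 1 (0.13). In myelin spots it was 504, 172 and 391 CPM, a log2 fold of -2.35 ± 0.58 against photoreceptor spots (adjusted p = 2.9e-06) and -1.92 ± 0.71 against the inner retina (adjusted p = 0.00024). The first was -1.75 without TMM, -3.21 with no filter and -3.04 without frame 4. Muscle with both clusters had no call (-0.42, adjusted p = 0.46), but Pkm was lower at a minimum of 50 marker UMIs per spot (-1.03, adjusted p = 0.041) and with the marker score (-1.34, adjusted p = 0.021). Without the Myh4-poor cluster Pkm was lower by -0.93 ± 0.67 (adjusted p = 0.043).

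The 2 lactate dehydrogenase genes ran in opposite directions across the retina. Ldha (ENSMUSG00000063229, chr7:46842274-46855627) was 567, 561, 564 and 574 CPM in the photoreceptor region, 469, 326, 604 and 523 CPM in the inner nuclear region and 302, 184, 243 and 246 CPM in the ganglion region. Ldhb (ENSMUSG00000030246, chr6:142490249-142507957, minus strand) was 34.4, 49.7, 25.2 and 5.92 CPM in photoreceptor spots (6, 10, 5 and 1 UMIs) and 227, 151, 130.4 and 189 CPM in ganglion spots (24, 27, 15 and 23 UMIs). The photoreceptor and ganglion ranges did not overlap for either gene. The ganglion mean of Ldhb, 174 ± 42.6 CPM (SD, n = 4), was followed by that of pigmented spots, 128 ± 61.6 CPM, and these ranges overlapped. Of the start-site sequences printed above, that of Ldha holds ACGTG at 3 places and that of Ldhb at none. The second start of Ldha, not printed, also has none. A link between these letters and the levels was not tested.

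From photoreceptor spots to the inner retina Ldha fell by -0.83 ± 0.32 (adjusted p = 0.0012, 4 of 4 frames) and Ldhb rose by 1.89 ± 0.86 (adjusted p = 0.00048, 4 of 4 frames). Within the inner retina Ldha fell from inner nuclear to ganglion spots by -1.06 ± 0.36 (adjusted p = 0.0045) and Ldhb rose by 1.29 ± 0.54 (adjusted p = 0.014). For this last pair the Ldha call was lost with no filter (0.071) and with the marker score (0.83). The Ldhb call was lost with DESeq2 (0.067) and without frame 1 or 3 (0.054 and 0.062), at resolution 1 (0.061) and with at least 10 marker UMIs per spot (0.055), and the marker score gave 3.82 (adjusted p = 0.046).

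Counted as a ratio, Ldha to Ldhb was 16.5, 11.3, 22.4 and 97 in the photoreceptor region, the last resting on 1 Ldhb UMI, and 1.33, 1.22, 1.87 and 1.304 in the ganglion region. In inner nuclear spots it was 4.63, 3.92, 31.5 and 9, between the other 2 regions in every frame but frame 3. Ldha made up 95.03% of the UMIs of both genes in photoreceptor spots (95% exact interval 92.6 to 96.9%) and 58.0% in ganglion spots (51.1 to 64.7%). The log2 ratio was lower in the inner retina than in photoreceptor spots by -2.93 ± 1.34 in 4 of 4 frames (exact permutation p = 0.13).

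The pigmented region was also poor in Ldha relative to Ldhb. Ldha was 254, 327, 265 and 441 CPM there and Ldhb 147, 156, 171 and 36.7 CPM (11, 22, 22 and 1 UMIs). Against photoreceptor spots Ldha fell by -0.89 ± 0.22 (adjusted p = 0.0036) and Ldhb rose by 2.27 ± 0.46 (adjusted p = 0.00016), each in 4 of 4 frames, and the Ldha call was lost with at least 50 marker UMIs per spot (-0.82, adjusted p = 0.17). The 9 immune markers summed to 882 to 5189 CPM in pigmented, 427 to 3304 CPM in ganglion and 374 to 717 CPM in inner nuclear spots, against 209 to 309 CPM in photoreceptor spots, with Cx3cr1 at 0 in inner nuclear spots. The immune-led cluster had Ldhb at 82.7 CPM (19 UMIs), and pigment epithelium spots by score had an immune sum of 457 to 900 CPM with Ldhb at 151 ± 47.4 CPM (SD, n = 4). The part of immune cells in the Ldhb levels was not tested. Ldhb was at 163 and 132 CPM in the clusters led by Rpe65 and by Dct, so it was present in both. The ratio of 1.73, 2.09, 1.55 and 12 gave a log2 difference of -3.07 ± 0.56 from photoreceptor spots (exact permutation p = 0.13). Against fibrous spots Ldhb was higher by 1.57 ± 1.38 (adjusted p = 0.033, 3 of 4 frames), a call that 7 alternatives lost (adjusted p = 0.057 to 0.4), among them leaving out frame 1, 2 or 3 (0.062, 0.19 and 0.29), and Ldha had no call (-0.53, adjusted p = 0.2). Their ratio differed by -1.65 ± 1.64 (3 of 4 frames, exact permutation p = 0.25), or -0.35 with the marker score.

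Ldha in muscle showed no call against photoreceptor spots. It was 238, 634, 583 and 828 CPM with both clusters and 199, 875, 722 and 629 CPM without the Myh4-poor cluster (1, 14, 13 and 2 UMIs), at log2 folds of -0.05 (adjusted p = 0.97) and -0.19 ± 1.204 (adjusted p = 0.77). The wide frame spread leaves room for differences of either sign. Ldhb had 7 UMIs in muscle and no call (1.02, adjusted p = 0.6, or 1.52, adjusted p = 0.25, without the Myh4-poor cluster), and the Ldha to Ldhb ratio was lower than in photoreceptor spots in 4 of 4 frames (-1.43 ± 0.78, exact permutation p = 0.13). It was -2.55 ± 1.73 without the Myh4-poor cluster and -2.31 ± 1.61 with the marker score. In myelin spots Ldha had 2 UMIs and Ldhb 4. The photoreceptor level of Ldha was 11.1 times the myelin level (counting interval 3.05 to 92.2, fitted fold -3.81 ± 1.44, adjusted p = 1.1e-05), and the inner retina level 6.26 times (interval 1.71 to 52.0, fitted fold -2.98 ± 1.79, adjusted p = 0.0023). Ldhb had no call in myelin spots (1.52 ± 2.85, adjusted p = 0.24), where all 4 UMIs were in frame 4, and none against the inner retina (-0.37 ± 1.80, adjusted p = 0.77). The Ldha fold against photoreceptor spots ran from -3.06 with the marker score to -4.64 with no filter, and was -4.56 without frame 2 and -3.21 without frame 3.

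Slc16a1 and Slc16a8 had their highest levels in pigment epithelium spots. Slc16a1 (ENSMUSG00000032902, chr3:104638664-104658462) is a broadly expressed lactate carrier. Slc16a8 (ENSMUSG00000032988, chr15:79251016-79255562, minus strand) is known for its place in the basolateral membrane of the retinal pigment epithelium. Slc16a1 was 223, 293, 307 and 314 CPM in photoreceptor spots, 123, 109, 192 and 194 CPM in inner nuclear spots and 66.1, 44.7, 43.5 and 73.9 CPM in ganglion spots, with no overlap between the 3. It fell from photoreceptor to inner retina by -1.63 ± 0.30 (adjusted p = 3.8e-06; -2.45 with the marker score) and from inner nuclear to ganglion by -1.50 ± 0.50 (adjusted p = 0.0083), although the second call was lost without frame 3 (0.054) and with no filter (0.070).

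In the whole pigmented region Slc16a1 was 227, 491, 288 and 551 CPM, which overlapped the photoreceptor values (0.36 ± 0.37, adjusted p = 0.36). The region's 2 clusters differed: 549.6 CPM in the cluster led by Rpe65 and 90.5 CPM in the cluster led by Dct. With spots drawn by marker score Slc16a1 was 582, 853, 494 and 783 CPM in pigment epithelium spots and 162, 189 and 75.1 CPM in melanocyte spots. Pigment epithelium was higher than melanocyte by a log2 fold of 2.17 ± 0.37 (n = 3, adjusted p = 0.0003) and than photoreceptor spots by 1.02 (adjusted p = 0.012) and fibrous spots by 2.24 (adjusted p = 0.002), where the clustered regions gave 0.25 against fibrous spots (adjusted p = 0.66). The comparison of pigment epithelium with melanocyte spots was added after the clusters had been seen.

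Slc16a8 had 132 UMIs in all. It was 212, 157, 289.8 and 65.3 CPM in pigment epithelium spots by score (4, 14, 17 and 1 UMIs) and 69.4, 85.9 and 113 CPM in melanocyte spots of frames 1 to 3 (3, 5 and 6 UMIs). In the clustered regions it was 107, 107, 179 and 36.7 CPM in pigmented spots and 28.6, 9.94, 20.2 and 17.7 CPM in photoreceptor spots (5, 2, 4 and 3 UMIs). Pooled over frames the pigmented level was 6.72 times the photoreceptor level (95% exact counting interval 3.64 to 13.2). The cluster led by Rpe65 had 45 of the region's 47 UMIs, at 198 CPM, and the cluster led by Dct had 2, at 13.9 CPM. Fibrous spots had 62.0, 105, 85.1 and 57.0 CPM, or 4.38 times the photoreceptor level (interval 2.19 to 9.12), ganglion spots 1 UMI in all, and myelin spots 0 UMIs, which allows up to 76.3 CPM.

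The ratio of Slc16a1 to Slc16a8 was 7.8, 29.5, 15.25 and 17.7 in photoreceptor spots (taken as UMI counts) and 2.125, 4.6, 1.61 and 15 in pigmented spots. It was lower in pigmented spots of every frame, by -1.97 ± 1.08 on the log2 scale (exact permutation p = 0.13), or -1.28 with the marker score. Pooled ratios were 15.1 (95% exact interval 8.83 to 28.2) and 2.94 (2.09 to 4.18). In muscle the ratio was lower than in photoreceptor spots by -1.52 ± 1.27 in 4 of 4 frames (exact permutation p = 0.13) with 35 and 5 UMIs. The difference was -2.77 ± 0.67 without the Myh4-poor cluster and -3.17 ± 1.196 with the marker score, lower in 4 of 4 frames each time. Inner retina and fibrous spots gave no steady difference: -0.03 ± 1.59 against photoreceptor spots for the inner retina (exact permutation p = 1) and -0.13 ± 1.45 for pigmented against fibrous spots (exact permutation p = 1).

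Slc16a1 in muscle was 59.4, 469, 291 and 341 CPM, with no call against photoreceptor spots (0.02, adjusted p = 0.99, or -0.64, adjusted p = 0.44, without the Myh4-poor cluster). Drawn by marker score, muscle had 1 Slc16a1 UMI in 23006 and was lower by -3.17 (adjusted p = 0.030), so its direction depends on how muscle is drawn. In myelin spots Slc16a1 had 0, 1 and 10 UMIs in frames 2, 3 and 4 and no call (-0.52 ± 2.42, adjusted p = 0.45). Without frame 4 it was lower by -3.23 (adjusted p = 0.019), so 1 frame decides that value. Against the inner retina it was 1.104 ± 2.25 (adjusted p = 0.16).

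Bsg (ENSMUSG00000023175, chr10:79704358-79711979) was highest in pigmented spots. Its level was 7733, 7666, 8684 and 6218 CPM in photoreceptor spots and 13556, 17477, 15793 and 10507 CPM in pigmented spots, with no overlap. The log2 fold was 0.88 ± 0.27 (adjusted p = 7.2e-05) and against fibrous spots 0.85 ± 0.35 (adjusted p = 0.0004). With no filter on low counts the first was 0.58 (adjusted p = 0.079). In pigment epithelium spots by score Bsg reached 21074, 21004, 24191 and 11947 CPM, against 12584, 13304 and 11831 CPM in melanocyte spots, a log2 fold of 0.74 ± 0.22 (n = 3, adjusted p = 0.0097). Counts per gene do not separate the longer photoreceptor form of basigin from the shorter form.

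Across the neural retina Bsg changed little. Inner retina against photoreceptor gave -0.24 ± 0.06 (adjusted p = 0.29, or 0.029 in a fit of only these regions), and ganglion spots, at 6255, 6328, 6860 and 5307 CPM, were lower than inner nuclear spots by -0.47 ± 0.11 (adjusted p = 0.0098). The second call was lost without frame 3 (0.072), with no filter (0.78) and with the marker score (0.055). In muscle Bsg was 11522, 12128, 11220 and 5504 CPM, and 20908, 16066, 11832 and 8488 CPM without the Myh4-poor cluster, with no call either way (adjusted p = 0.58 and 0.51). Myelin spots had 2267, 3384 and 1677 CPM, the lowest mean of the 7 regions, at -2.02 ± 0.76 against photoreceptor spots (adjusted p = 1.7e-10) and -1.78 ± 0.81 against the inner retina (adjusted p = 1.6e-08). The first was -1.38 without TMM, -2.90 with no filter and -1.09 with the marker score.

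**Figure D4:**
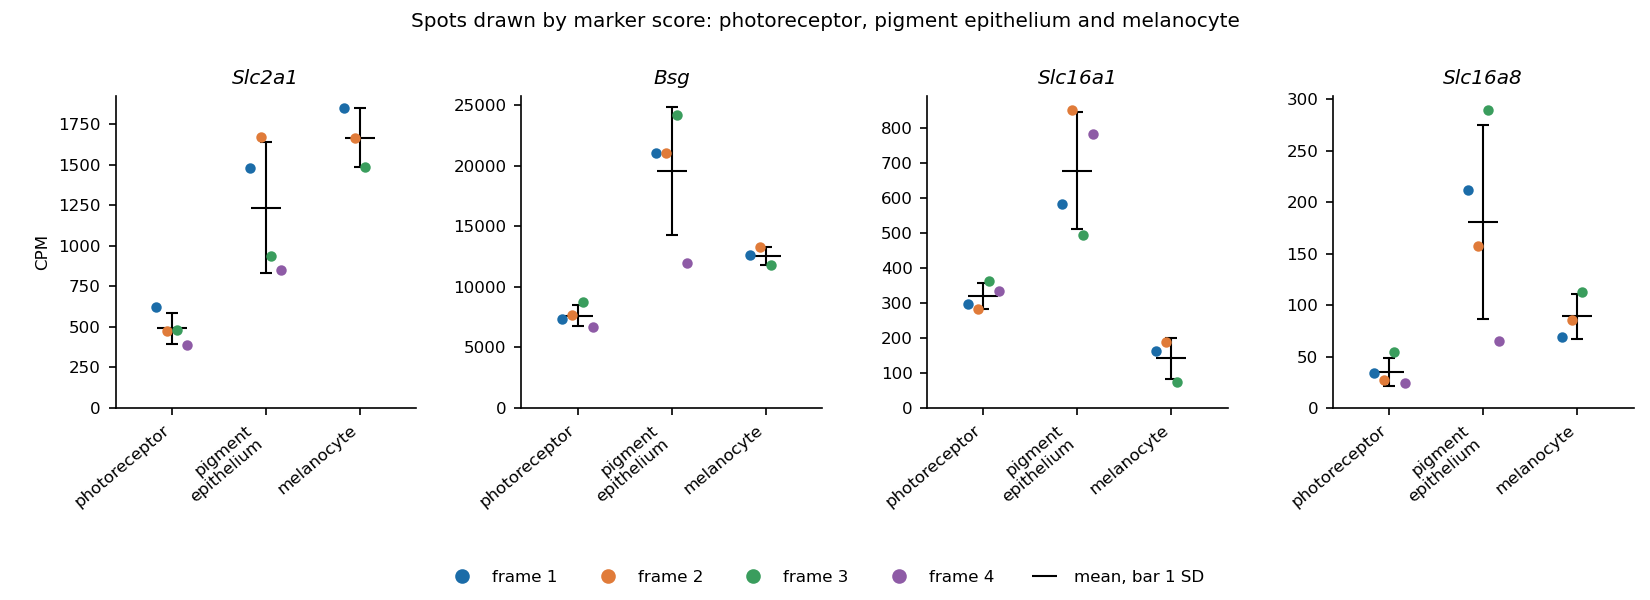
Levels of Slc2a1, Bsg, Slc16a1 and Slc16a8 in CPM (vertical axis, own scale per panel) in photoreceptor, pigment epithelium and melanocyte spots drawn by marker score; points are frames, the dash is the mean and the bar 1 SD. Slc16a1 is at 494 to 853 CPM in pigment epithelium and 75.1 to 189 CPM in melanocyte spots, while Slc2a1 overlaps between these.

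Read against all genes, these differences were common in some comparisons and rare in others. In inner retina minus photoreceptor 1 of the 8 genes tested was higher and 4 were lower, where 45.4% of 2407 genes passed (25.1% higher, 20.4% lower). The median fold was -0.63 for the 8 genes and 0.05 for all. In pigmented minus photoreceptor 3 were higher and 4 lower, where 34.4% passed (18.7% higher, 15.7% lower). In pigmented minus fibrous 3 were higher and 3 lower of 8, where 17.2% passed.

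In muscle minus photoreceptor only Hk1 passed among the 8, where 1.41% of genes passed (1.12% higher, 0.291% lower). Without the Myh4-poor cluster 3 were lower, where 15.9% passed (4.32% higher, 11.6% lower), and the medians were -0.42 for the 8 genes and -0.50 for all. In myelin minus photoreceptor 5 of 8 were lower, where 36.7% passed (10.8% higher, 25.9% lower), with medians of -2.18 and -0.99. In myelin minus inner retina, a comparison added later, 4 were lower, where 29% passed (7.48% higher, 21.5% lower), with medians of -1.85 and -1.07. The myelin markers, which were left out of the fit, summed to 130479 to 236995 CPM there.

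In ganglion minus inner nuclear 9 genes could be tested, of which 2 were higher and 6 lower, where 26.6% of 2019 genes passed (13.9% higher, 12.7% lower). In pigment epithelium minus melanocyte 2 of 7 were higher, where 11.1% of 1148 genes passed (5.31% higher, 5.75% lower). The comparisons with photoreceptor spots share those spots, so they are not independent of each other.

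**Figure D5:**
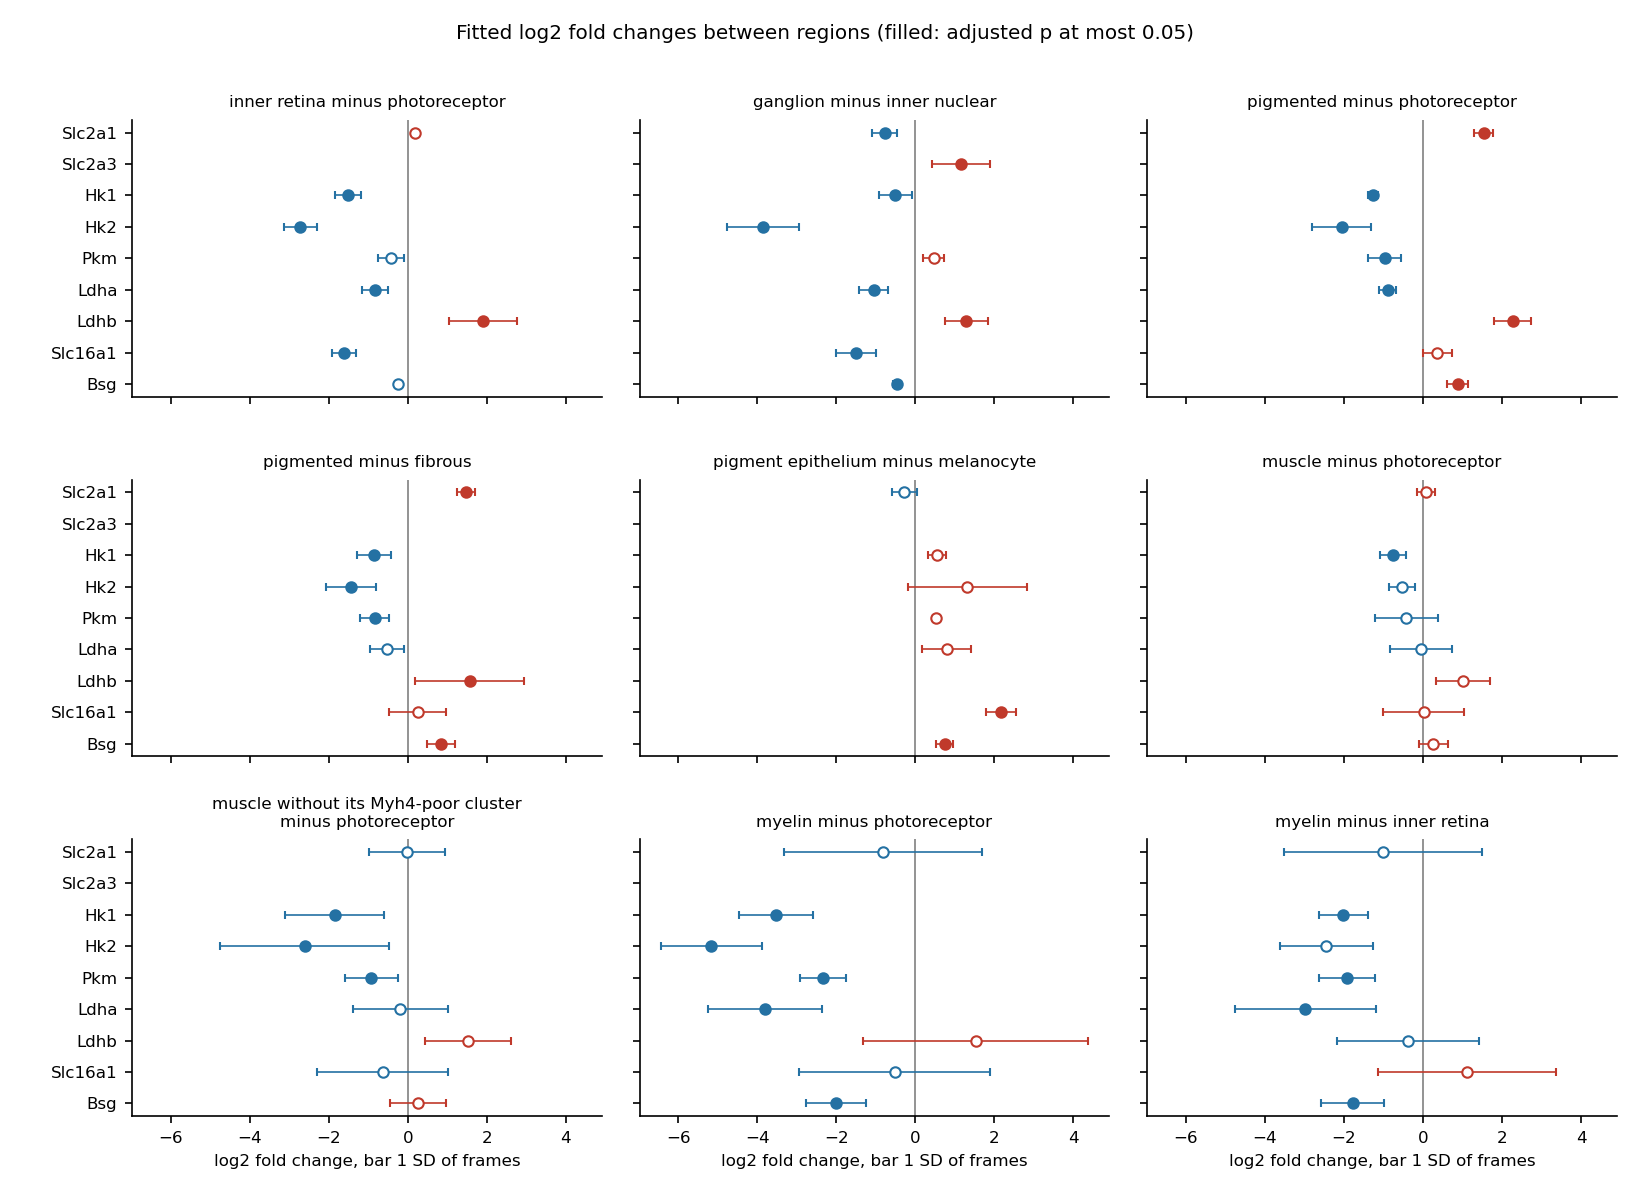
Fitted log2 fold change (horizontal axis) of each gene tested (vertical axis) in 9 comparisons between regions; bars are 1 SD of the frames' own log2 folds and filled points passed at an adjusted p of 0.05. Hk2 is at -2.72 for inner retina minus photoreceptor and -3.85 for ganglion minus inner nuclear, and Ldhb is at 1.89 and 1.29 in the same comparisons.

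Other glycolytic enzymes did not follow Hk2 and Ldha across the retina. Of 28 listed, 11 were tested in inner retina minus photoreceptor, and 6 rose and none fell, where 25.1% of all genes rose and 20.4% fell, while Hk1, Hk2 and Ldha fell. They were the triose phosphate isomerase gene Tpi1 (1.41 ± 0.32, adjusted p = 3.2e-06), the neuronal enolase gene Eno2 (1.75, adjusted p = 2.1e-05), the phosphofructokinase genes Pfkm (2.66, adjusted p = 0.00013) and Pfkp (0.76, adjusted p = 0.017), the aldolase gene Aldoc (1.27, adjusted p = 0.00059) and the phosphoglucose isomerase gene Gpi1 (0.72, adjusted p = 0.025). From inner nuclear to ganglion spots Gpi1, Tpi1 and Eno2 rose again, by 0.98, 0.87 and 1.15 (adjusted p = 0.0051, 0.0068 and 0.0075), 3 of 10 tested with none lower, where 13.9% of all genes rose and 12.7% fell.

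In pigmented spots no listed enzyme rose against photoreceptor spots and 3 of 11 fell, where 18.7% of all genes rose and 15.7% fell: Gapdh (-0.63, adjusted p = 0.012), the liver-type phosphofructokinase gene Pfkl (-0.71, adjusted p = 0.025) and the phosphoglycerate mutase gene Pgam1 (-0.76, adjusted p = 0.026). Against fibrous spots Gapdh alone fell (-0.84). In muscle Pfkm, the muscle-type phosphofructokinase gene, rose by 3.16 (adjusted p = 0.013). Without the Myh4-poor cluster Pfkm and the muscle enolase gene Eno3 rose by 4.03 (adjusted p = 5.6e-05) and 4.12 (adjusted p = 0.00083), on 11 and 8 UMIs in muscle, and Pfkl fell (-1.53, adjusted p = 0.029). In myelin spots 6 of 11 fell and none rose against photoreceptor spots, by between -1.86 (Pgam1) and -3.56 (Eno1), and 8 fell and none rose against the inner retina, where 25.9% and 21.5% of all genes fell. Between pigment epithelium and melanocyte spots none of 10 passed.

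Among 12 listed regulators 7 were tested. In the inner retina 1 rose and 3 fell and in pigmented spots 1 rose and 2 fell against photoreceptor spots, beside the shares of all genes just given. Txnip, whose product limits glucose uptake, rose in pigmented spots (1.97, adjusted p = 5.1e-09) and in muscle (1.38, adjusted p = 0.0087, or 1.98 without the Myh4-poor cluster, adjusted p = 2.4e-06), and was lower in pigment epithelium than in melanocyte spots (-1.05, adjusted p = 0.015). Nxnl1 and Nxnl2 encode rod-derived cone viability factors, of which the Nxnl1 product is known to bind basigin together with Slc2a1. Both fell from photoreceptor to inner retina, by -2.15 (adjusted p = 5.4e-07) and -2.33 (adjusted p = 7.8e-05), as did Esrrb, a nuclear receptor gene of rods, by -2.37 (adjusted p = 1.4e-06). Nxnl1 also fell from inner nuclear to ganglion spots, by -3.55 (adjusted p = 8e-06), as Hk2 did. Vdac1, the mitochondrial channel to which hexokinases bind, rose in the inner retina (1.16, adjusted p = 4.4e-05). Esrrb and Nxnl2 had 0 UMIs in myelin spots, which allows up to 76.3 CPM.

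Of 18 other sugar and monocarboxylate carriers only Slc16a6 had enough UMIs for the test, and it fell from photoreceptor spots to the inner retina (-2.30, adjusted p = 4.6e-06) and to pigmented spots (-1.82, adjusted p = 0.0019). None of 14 genes for the entry of pyruvate into mitochondria reached the test in the main regions, so nothing can be said of them at this depth. The lists cover steps for which the depth is enough for the most abundant enzymes only.

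Likeness of pattern was measured over 23 sums by region and frame, by Pearson's r of log2(CPM + 20) among 2954 genes. The marker genes that drew the regions were ranked apart and are left out here, although some were closer, such as Gngt1 for Hk2 (0.977), Rgr for Bsg (0.915), Pmel for Slc16a8 (0.906) and Gnat1 for Ldha (0.884). The other genes named here are among the 3 closest outside that panel. For Hk2 they were the rod channel gene Cngb1 (0.971) and Pde6d (0.966), and for Hk1 Unc119 (0.964), Gnb1 (0.963) and Ppp2r5c (0.954). For Bsg they were Cltrn (0.906), the catalase gene Cat (0.8999) and Ace (0.894), and for Slc16a8 Clic6 (0.846), Bgn (0.829178) and Rlbp1 (0.816). For Slc2a3 they were Scg2 (0.879) and Kcnh7 (0.805). The closest gene outside the panel was Ap2a2 for Ldha (0.883), Strbp for Pkm (0.869), Rpn2 for Slc16a1 (0.836), Park7 for Slc2a1 (0.833) and Sod1 for Ldhb (0.830). The sums share libraries and differ in depth, so these values describe likeness only.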

How the data were processed

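Each of the 4 Visium frames is 1 library, and only spots over tissue were used. The values are counts: whole numbers of UMIs per gene and spot, as the authors deposited them. Per the file headers Space Ranger 2.0.0 made them, and the submitters' processing notes name mm10. No aligner setting or annotation release is given in the sources used here. Genes such as Ldha, Gapdh and Hk2 have pseudogenes, and how reads shared with them were counted is not given either. Where 1 symbol stands for several genes (38 symbols), rows were told apart by identifier, and Aldoa, one of them, was left out.

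Spots with at least 20 UMIs over 152 panel genes in 12 classes were scaled to 10000, log-transformed, standardised (limit 10), reduced to 10 principal components and joined to 15 neighbours (scikit-learn 1.9.0), then partitioned with Leiden at resolution 0.6 (leidenalg 0.10.2). Clusters were named by the class most common among their 10 leading genes, if it had at least 3. UMIs were summed per frame and region with at least 10 spots. Neither library sizes nor tests included panel genes, low counts were filtered (minimum count 10), and edgeR 4.0.16 in R 4.3.3 fitted TMM-scaled sums with the frame as a block. The ± beside folds uses a prior count of 2. Ratios used a pseudocount of 0.5 and exact sign-flip tests (scipy 1.17.1). In the marker-score split a spot took the class with the highest score, at least 3 and on at least 5 UMIs.

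Regions of a frame share its library, which is where the pairing comes from. Deviations of same-frame regions from their means correlated at 0.008 to 0.209, over 0.1 in 11 of 23 pairs. Counts were also simulated from the photoreceptor means, with a fixed spread, no frame effect and genes changed in the inner retina alone. There the test recovered 76 of 92 genes changed by 1 and 108 of 108 changed by 2 on the log2 scale. Genes with low expected counts were not changed, and no gene was changed in muscle or myelin. The simulation therefore says nothing of recovery in those cases.

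The 10 genes are described wherever they were tested. Of 4 lists with 72 other pathway genes those past the threshold were named, and most-alike genes were the 3 with the highest r among genes with a mean of at least 50 CPM. The members, lists, regions and comparisons were chosen with earlier results of these data known. Alternatives were DESeq2 1.42.0, no TMM, no filter, no block, 2-region fits, leaving out each frame, Leiden resolution 1, spot minimums of 10 and 50, the marker score, panel genes kept, and other pseudocounts and denominators. Muscle without its Myh4-poor cluster, pigment epithelium against melanocyte spots, and myelin against inner retina were added after seeing the data. A few genes that these rules name are not reported here.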

Additional observations from a re-analysis of the deposited data

Results flagged for a closer look

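Of 50 sets of 4 frames, 1 set per gene and region, 2 held a frame that stood far from the other frames; chance alone does so in about 1 of 20 sets. Slc2a3 in muscle was 59.4 CPM in frame 1 and 0 in the other frames, which is a single UMI. Bsg in muscle was 5504 CPM in frame 4 and 11220 to 12128 CPM in the other frames.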

How the results depend on the processing

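Over 672 refits of 49 member folds, 598 kept their direction and side of the threshold, 51 lost a call, 20 gained one and 3 turned, all 3 with the marker score: Slc16a1 in muscle (-3.17), Hk1 in pigmented minus fibrous (0.24) and Hk1 in ganglion minus inner nuclear (0.31). Of 420 member levels 391 moved by less than 1 SD of the frames. Without the frame block (no replicate block) the exact unpaired test gave p = 0.0286 for 6 ratio differences that the paired test could not call. That is the smallest p this test can give, it ignores the pairing by frame, and it was not adjusted over the 15 ratio tests. For Hk2 to Hk1 they were inner retina (-1.17), pigmented (-0.99) and pigmented minus fibrous (-0.79). For Ldha to Ldhb they were inner retina (-2.93), pigmented (-3.07) and myelin (-4.44). Ratio signs turned for Hk2 to Hk1 in muscle (-0.65 without the Myh4-poor cluster, -0.042 by marker score) and myelin (0.26 with a pseudocount of 1, -0.83 to 0.48 without 1 frame), and for Slc16a1 to Slc16a8 in inner retina (0.56 with a pseudocount of 0.1, 0.42 by marker score, -0.54 to 0.56 without 1 frame, 0.26 without frame 3) and pigmented minus fibrous (1.31 by marker score, 0.19 without frame 1, -0.71 to 0.33 without 1 frame). Counts of genes past the threshold moved by over 1.5 times as follows. Inner retina minus photoreceptor had 1093, then 1832 with no filter and 405 by marker score. Pigmented minus photoreceptor had 827, then 289 at a spot minimum of 50 and 226 by marker score. Muscle minus photoreceptor had 34, then 130 with no filter, 15 in the fit of 2 regions, 147 at resolution 1, 77 and 53 at spot minimums of 10 and 50, 181 by marker score, 68 with panel genes kept, 406 without the Myh4-poor cluster, and 18 to 64 without 1 frame. Myelin minus photoreceptor had 883, then 323 in the fit of 2 regions, 305 by marker score and 582 (without frame 3) to 815 without 1 frame. Pigmented minus fibrous had 415, then 49 at a minimum of 50, 48 by marker score and 231 (without frame 1) to 461 without 1 frame. Ganglion minus inner nuclear had 537, then 247 at a minimum of 50 and 73 by marker score. The cause of these moves was not tested. Depth limits Slc16a8, Slc2a3 and Ldhb most, with 132, 240 and 295 UMIs in all.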
